A study of Mus musculus with 24 samples.

Results

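The mRNAs of 8 subunits of neuronal nicotinic acetylcholine receptors were followed over the day in the ventral tegmental area (VTA) of the mouse: Chrna3, Chrna4, Chrna5, Chrna6, Chrna7, Chrnb2, Chrnb3 and Chrnb4. They were chosen by name, as the probe sets whose single annotated gene was one of these symbols, and are 8 of the 19938 genes named on the arrays. Each was read by 1 probe set. The mice were male C57BL/6N wild types of 10 to 12 weeks with free access to chow and water. They were kept in 12 h of light and 12 h of dark, and the VTA was sampled at Zeitgeber time (ZT) 0, 4, 8, 12, 16 and 20, where ZT0 is lights on and ZT12 lights off. Each time point had 4 arrays, each hybridised with RNA of punched VTA tissue, which makes 24 arrays in all. These hours are those of the labels, and the methods text of the study gives a longer sampling interval. Every group carried the same genotype and housing. By the labels the groups differed in the hour of sampling, and no extraction or scan batch is named. The light cycle was running throughout, so light itself and an internal clock cannot be told apart as sources of a time-of-day difference. A punch holds many cell types, and in such bulk tissue fewer cells of a type and less RNA per cell cannot be told apart.

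Nicotinic receptors are ion channels built of 5 subunits around a pore that opens when acetylcholine or nicotine binds. The alpha 4, alpha 6 and beta 2 subunits form the high-affinity receptors of midbrain dopamine neurons, with alpha 5 and beta 3 as accessory subunits that change their assembly and conductance. The alpha 7 subunit can form a channel of its own, and alpha 3 with beta 4 is the pair of autonomic ganglia and of the medial habenula. In the VTA these channels carry the excitation of dopamine neurons by cholinergic afferents and by nicotine.

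To show what precedes the start of the subunit genes, the 250 bases upstream of the annotated starts were read from RefSeq (GRCm38.p6). Entries matched 6 of the 8 genes, with 7 starts, and none was printed for Chrna6 and Chrnb3. The E-box CACGTG, the element bound by the CLOCK and BMAL1 activators, reads the same on both strands and lay in 1 of the 7 windows, that of Chrna7. It lay in 6.02% of all 32851 windows of this length. The D-box TTATGTAA, searched on both strands, lay in 0 of the 7 and in 0.819% of all. The Chrna7 window is printed because it holds the motif, in capitals, and the Chrna4 window because that subunit is one of those that varied with dopamine neuron markers below. Both lie on the minus strand and are written 5′ to 3′ along the gene.
Chrna7, chr7:63212527-63212776: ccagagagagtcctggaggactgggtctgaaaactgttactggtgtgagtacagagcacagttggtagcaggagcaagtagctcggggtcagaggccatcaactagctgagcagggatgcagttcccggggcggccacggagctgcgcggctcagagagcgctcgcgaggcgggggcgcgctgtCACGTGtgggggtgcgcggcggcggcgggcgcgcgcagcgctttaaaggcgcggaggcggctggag
Chrna4, chr2:181039178-181039427: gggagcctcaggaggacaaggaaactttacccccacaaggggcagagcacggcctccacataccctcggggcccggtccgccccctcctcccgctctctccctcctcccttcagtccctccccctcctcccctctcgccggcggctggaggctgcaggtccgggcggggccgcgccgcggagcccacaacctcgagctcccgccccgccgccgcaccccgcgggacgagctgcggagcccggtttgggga
The motif of Chrna7 began 66 bases before the start. GC made up 67.2% of the Chrna7 window and 74.4% of the Chrna4 window. A match of letters is a description of the sequence and not of factor binding.

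The punches carried mRNAs of dopamine neurons. Th, the rate-limiting enzyme of dopamine synthesis, read 7.76 on the log2 scale on average (lowest array 7.43, highest 8.21). Slc6a3, the dopamine transporter, averaged 8.48 and Slc18a2, the vesicular monoamine transporter, 7.43. The serotonin neuron markers Slc6a4 and Tph2 averaged 8.23 and 7.59. Whether the punches held tissue beyond the VTA was not tested. All 13 listed dopamine neuron markers were on the array. Their mean ranged from 7.46 to 7.82 over single arrays and from 7.57 to 7.70 over time-point means. Averages of 4 arrays span less than single arrays, so the ranges are not set against each other. Array medians lay between 6.71 and 6.79. The array of ZT0 replicate 4 stood apart, with a median correlation of 0.970 with the others, against 0.988 or more for the remaining arrays. Values are RMA signals on the log2 scale, so that a difference of 1 is a doubling. Levels of different probe sets are not set against each other, only against the median transcript mean of 6.76. Below it lay the means of Chrna3 (6.30), Chrna5 (6.09), Chrna6 (6.46), Chrnb2 (6.58) and Chrnb3 (6.16). Whether low signal hid a rhythm or a relation of these subunits was not tested.

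None of the 8 subunits passed the test for a 24-h rhythm. Each of the 23410 transcripts was given a cosine curve with a 24-h period in limma, with p-values adjusted by Benjamini-Hochberg over all of them. No subunit passed an adjusted p of 0.05 (0 of 8), and the smallest adjusted p in this limma fit was 0.772, for Chrna5. Without adjustment 0 of 8 passed as well. Over all transcripts 0.0299% passed after adjustment and 8.91% without it. With the 6 time points as separate levels in limma, 0 of 8 passed at either threshold, where 0.00427% and 5.1% of all transcripts did. The fitted swing, from trough to peak of the curve, ranged from 0.024 for Chrna7 to 0.13 for Chrna5 on the log2 scale. Its median over the 8 subunits was 0.10, the same as over all transcripts (0.10).

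**Figure D1:**
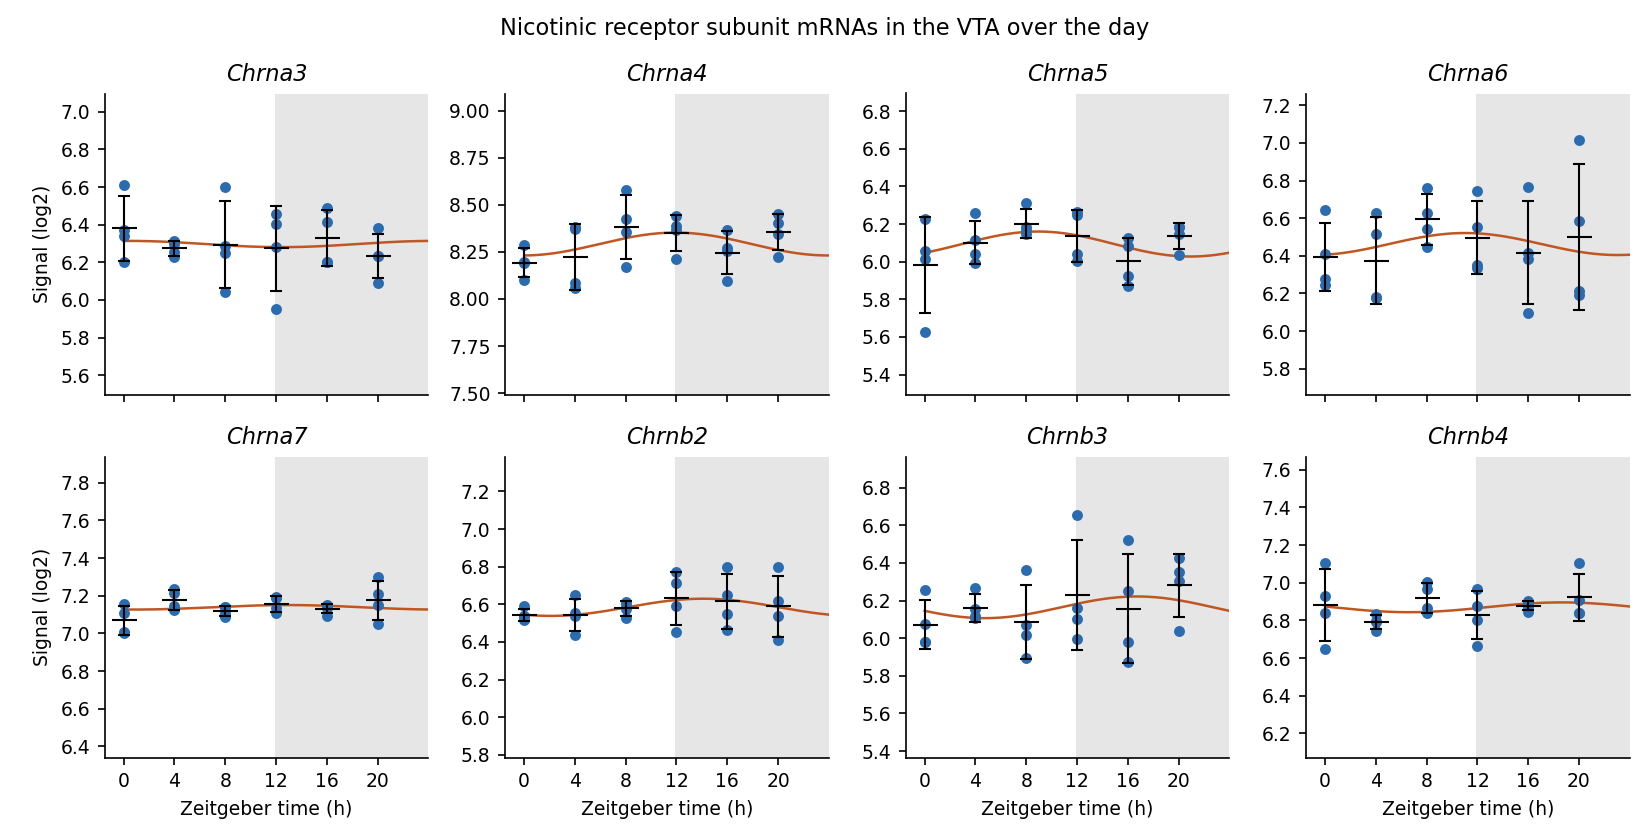
Log2 signal of each subunit against Zeitgeber time in hours. Points are single arrays (4 per time point), black bars the mean and SD, orange lines the fitted 24-h cosine, and grey areas the dark phase. Every vertical axis spans the same number of log2 units. The curves stay within the spread of the points, with swings between 0.024 and 0.13.

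Chrna6, which encodes the alpha 6 subunit and is concentrated in catecholamine neurons of the brain, spread most between mice. Its 4 values were 6.28, 6.41, 6.64 and 6.25 at ZT0 and 6.17, 6.18, 6.52 and 6.63 at ZT4. At ZT8 they were 6.45, 6.76, 6.63 and 6.54, and at ZT12 6.75, 6.35, 6.55 and 6.33. In the later dark the values were 6.42, 6.10, 6.38 and 6.77 at ZT16 and 6.59, 7.02, 6.21 and 6.19 at ZT20. Both the lowest and the second highest of the 24 thus came from ZT16, and the ranges of all time points overlapped. Time-point means ran from 6.37 ± 0.23 (SD, n = 4) at ZT4 to 6.59 ± 0.13 at ZT8, a span of 0.22 against an SD within time points of 0.25. Only 3.84% of all transcripts had a within-time-point SD as large. The swing was 0.12 ± 0.12 (SE) with an adjusted p of 0.906 in limma.

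Chrna4, the alpha 4 subunit of the high-affinity receptors, was steadier. It read 8.10, 8.19, 8.29 and 8.19 at ZT0, 8.06, 8.09, 8.38 and 8.37 at ZT4, and 8.36, 8.58, 8.43 and 8.17 at ZT8. In the dark it read 8.44, 8.37, 8.39 and 8.21 at ZT12, 8.09, 8.26, 8.27 and 8.37 at ZT16, and 8.45, 8.40, 8.35 and 8.22 at ZT20. The means of ZT0 (8.19 ± 0.076) and ZT4 (8.22 ± 0.18) were the lowest and that of ZT8 (8.38 ± 0.17) the highest, with overlapping arrays. Its swing of 0.12 ± 0.076 (SE) corresponded to a peak 1.09-fold above the trough, and 39.3% of all transcripts had a swing as large.

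Chrnb3, the accessory beta 3 subunit, had the second largest spread, with an SD within time points of 0.21. It read 5.98, 5.98, 6.26 and 6.07 at ZT0, 6.12, 6.15, 6.27 and 6.11 at ZT4, and 6.07, 6.36, 6.02 and 5.90 at ZT8. In the dark its values were 6.65, 6.00, 6.16 and 6.10 at ZT12, 5.88, 5.98, 6.52 and 6.25 at ZT16, and 6.35, 6.43, 6.30 and 6.04 at ZT20. Single arrays ran from 5.88 at ZT16 to 6.65 at ZT12, and time-point means from 6.07 ± 0.13 at ZT0 to 6.28 ± 0.17 at ZT20. The swing was 0.12 ± 0.11 (SE).

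The other alpha subunits gave the following means. Chrna5, the accessory alpha 5 subunit, ran from 5.98 ± 0.25 at ZT0 to 6.20 ± 0.075 at ZT8, with 1 low array at ZT0 (5.63) against 6.01, 6.06 and 6.23 in its 3 companions. The low array was ZT0 replicate 4, which stood apart from the others, and without it the difference between early light and early dark given below turned from -0.028 to 0.031. Chrna3, the alpha 3 subunit, ran from 6.23 ± 0.12 at ZT20 to 6.38 ± 0.17 at ZT0, with single arrays from 5.95 to 6.61. Chrna7, the alpha 7 subunit, was the steadiest of the 8: its means lay between 7.07 ± 0.078 at ZT0 and 7.18 ± 0.054 at ZT4, and 99.5% of all transcripts had an SD within time points as large as its 0.062. Its swing was 0.024 ± 0.052 (SE), and it lay between 0.0054 (without ZT0 replicate 1) and 0.044 (without ZT20 replicate 1) when single arrays were left out.

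The remaining beta subunits had small swings too. Chrnb2, the beta 2 subunit that partners alpha 4 and alpha 6, ran from 6.54 ± 0.087 at ZT4 to 6.63 ± 0.14 at ZT12, with a swing of 0.091 ± 0.065 (SE). Chrnb4, the beta 4 subunit, ran from 6.79 ± 0.037 at ZT4 to 6.92 ± 0.13 at ZT20, with a swing of 0.052 ± 0.068 (SE). When the 6 time points were put in order of their means, neighbours in that order differed by less than the SD within time points in every one of the 8 subunits. The whole range of means exceeded that SD in 5 of them, namely Chrna4, Chrna5, Chrna7, Chrnb3 and Chrnb4. Fitted peak times are not compared, since the SE of the peak was at least 2.38 h for each of the 8.

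The comparison of early light (ZT0 and ZT4) with early dark (ZT12 and ZT16) asked whether subunit mRNAs differed between the start of rest and the start of activity. The estimate was below 0 for 7 of the 8 subunits and above 0 for Chrna3, and no difference passed the test. In limma 0 of 8 passed an adjusted p of 0.05 and 0 of 8 an unadjusted one. Over all transcripts 0.0342% and 10.2% passed. The median difference over the 8 was -0.050 on the log2 scale, beside -0.0055 over all transcripts.

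Chrna4 differed most. Over the 8 early-light arrays it ran from 8.06 through a median of 8.19 to 8.38, and over the 8 early-dark arrays from 8.09 through 8.32 to 8.44. The groups overlapped over most of their range, and the difference was -0.090 (95% interval -0.22 to 0.042, adjusted p = 0.659 in limma). Chrnb2 differed by -0.079 (interval -0.20 to 0.043), Chrnb3 by -0.075 (-0.27 to 0.12) and Chrna6 by -0.072 (-0.30 to 0.15). Chrna5, Chrna7 and Chrnb4 differed by -0.028, -0.020 and -0.016, and Chrna3 by 0.026. The early-light and early-dark arrays of every one of the 8 subunits overlapped. As folds of early light over early dark, the 95% intervals reached down to 0.814 for Chrna6, the least precise, and to 0.926 for Chrna7. On the upper side they reached 1.14 for Chrna3 and 1.11 for Chrna6.

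**Figure D2:**
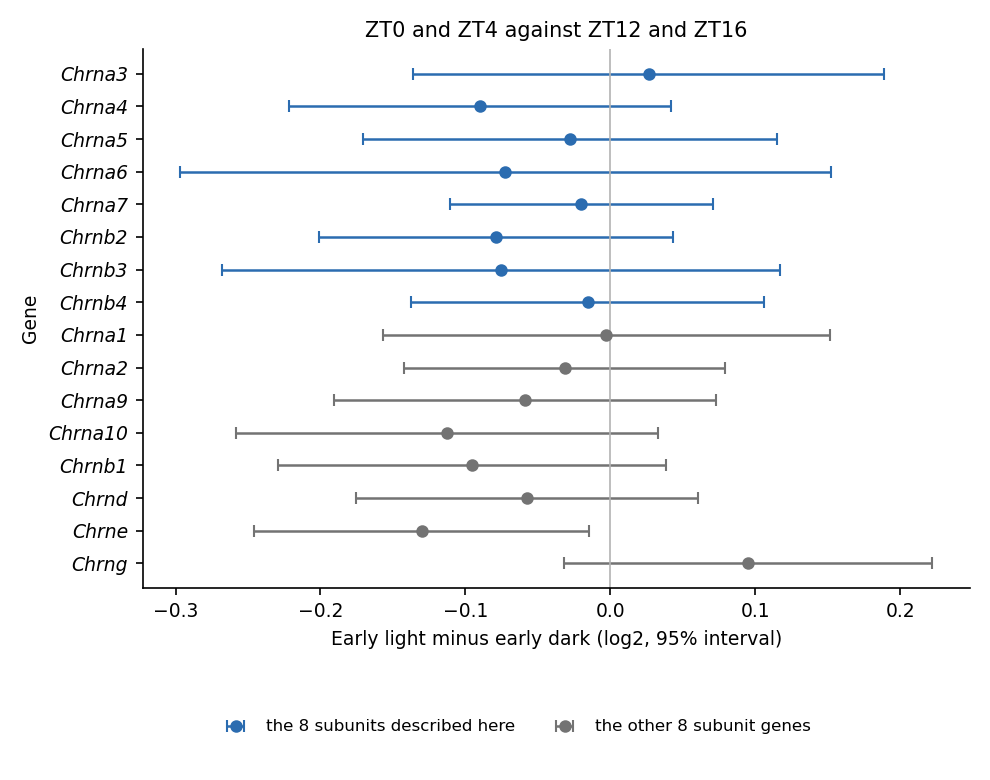
Difference in log2 signal between early light (ZT0 and ZT4, 8 arrays) and early dark (ZT12 and ZT16, 8 arrays) for the 8 subunits (blue) and the other 8 nicotinic subunit genes of the array (grey). Points are limma estimates and bars 95% intervals; 15 of the 16 intervals include 0, and that of Chrne, from -0.25 to -0.014, does not.

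Since Chrna6 and Chrnb3 spread most between mice of the same time point, subunits were also compared with each other and with Th across mice. Each value was taken as the deviation from the mean of its time point, so that time of day was removed, and arrays were permuted within time points. Of 36 relations (28 pairs of subunits and 8 of a subunit with Th), 5 passed an adjusted permutation p of 0.05 and 6 passed without adjustment. The 5 involved only Chrna4, Chrna6, Chrnb3 and Th. The median r over the 28 pairs was 0.066, and 17 of them were positive. Set against all genes, the median r was 0.043 for Chrna4, 0.025 for Chrna6 and 0.0062 for Chrnb3, with 95th percentiles of 0.486, 0.390 and 0.407.

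Chrna6 followed Th closely. Over 24 mice Pearson's r was 0.862 and Spearman's rho 0.850 (permutation p = 3e-05 for each, adjusted p = 0.00108, two-sided). Without the 2 mice farthest from the median of Th (ZT4 replicate 4 and ZT20 replicate 2) r was 0.823, and it ranged from 0.830 to 0.893 when each array was left out. The relation was positive within each of the 6 time points, from 0.461 at ZT8 to 0.991. The mouse with the highest Th was also the one with the highest Chrna6 at 5 of 6 time points, and 20 of 24 mice lay on the same side of their time-point mean for both. At ZT20, for example, Chrna6 read 7.02 and Th 8.21 in replicate 2, against 6.19 and 7.59 in replicate 4. The slope was 0.98 log2 units of Chrna6 per log2 unit of Th. Among 19937 genes ranked by r with Th, Chrna6 was at rank 2, behind Slc6a3 at 0.938. Ddc, which makes dopamine from L-DOPA, had an r of 0.787, Ret, a receptor of dopamine neuron trophic factors, 0.783, and Slc18a2 0.604. Not all dopamine neuron markers followed Th so closely. Drd2, Aldh1a1 and Nr4a2 had an r with Th of 0.619, 0.572 and 0.508. For the transcription factors Pitx3, En1, Foxa2, Lmx1b and Foxa1 it was 0.293, 0.249, 0.118, 0.062 and -0.283. The median over all genes was 0.013.

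Chrna4 and Chrnb3 also varied with Th, with wider scatter. For Chrna4 r was 0.624 and rho 0.652 over 24 mice (permutation p = 0.00122, adjusted p = 0.0192 for r). It was positive at 6 of 6 time points, r without the 2 mice farthest in Th was 0.601, and the slope was 0.37. For Chrnb3 r was 0.596 and rho 0.610 (permutation p = 0.00503, adjusted p = 0.0362 for r), positive at 5 of 6 time points with -0.351 at ZT4, and 0.681 without the 2 mice farthest in Th. The slope was 0.57. Chrna4 was at rank 57 and Chrnb3 at rank 91 of the 19937 genes. Both calls were lost without ZT8 replicate 2, though r did not fall. The adjusted permutation p was then 0.0549 for Chrna4 and 0.0623 for Chrnb3, at an r of 0.637 and 0.597. Chrnb3 with Th also lost its call without ZT12 replicate 1, at an r of 0.515 (adjusted permutation p = 0.165).

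**Figure D3:**
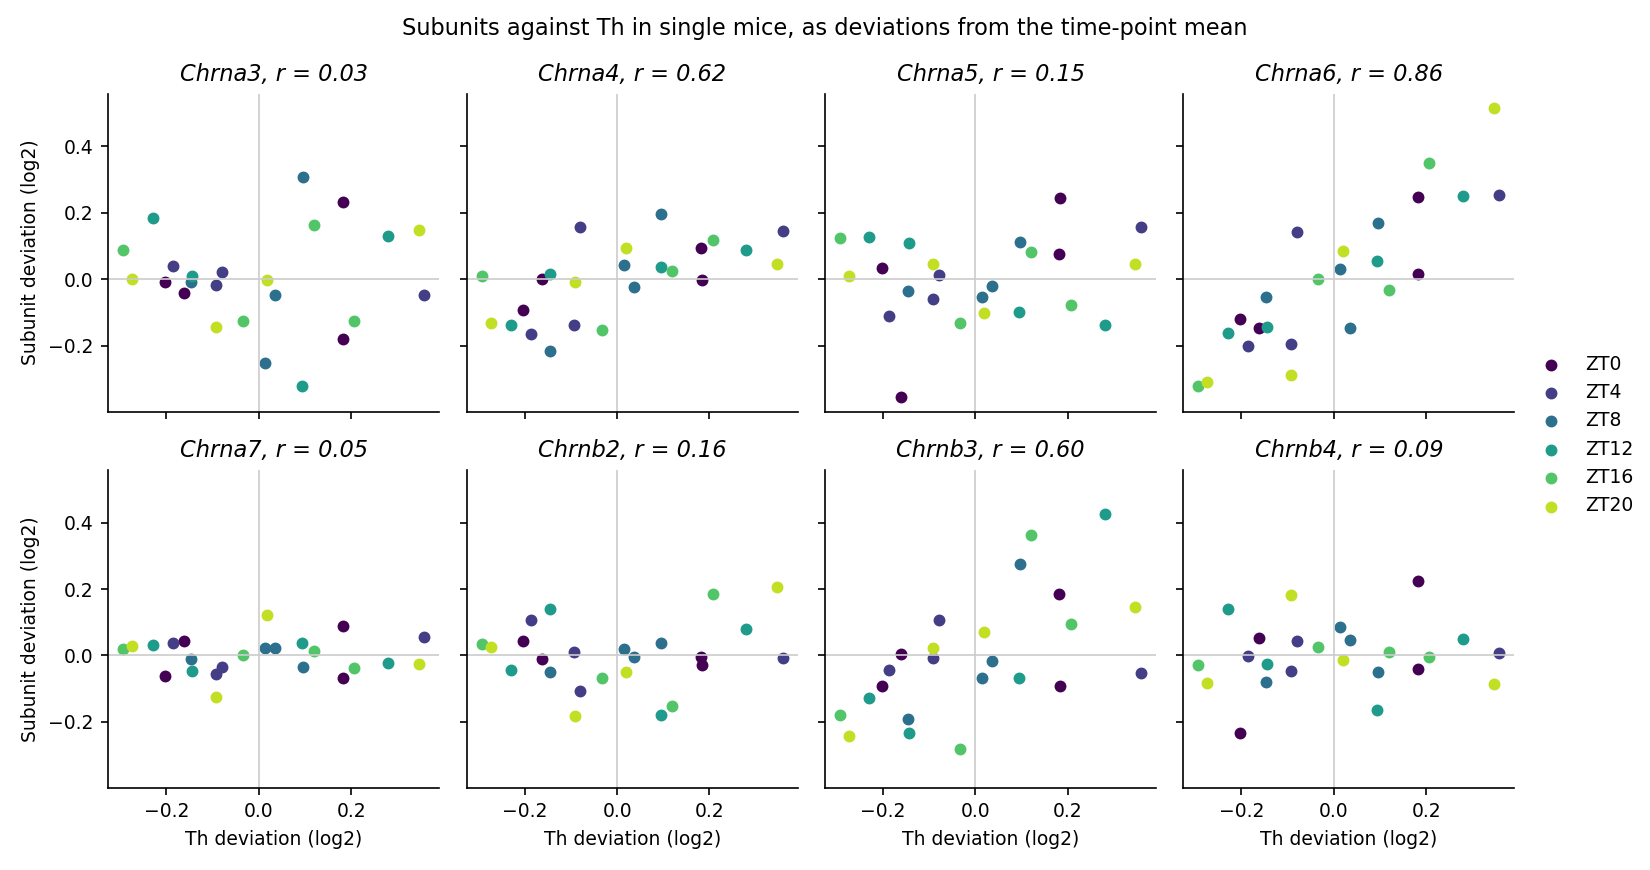
Deviation of each subunit from its time-point mean (vertical axis, log2) against the same deviation of Th (horizontal axis, log2); each point is 1 array, coloured by time point, and r is Pearson's over 24 mice. Points rise from lower left to upper right for Chrna6 (r = 0.86), Chrna4 (0.62) and Chrnb3 (0.60), and form no slope for the other 5 subunits, whose r lies between 0.03 and 0.16.

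The r of the other subunits with Th was 0.155 for Chrnb2, 0.146 for Chrna5, 0.090 for Chrnb4, 0.047 for Chrna7 and 0.026 for Chrna3, and none passed the permutation test (smallest adjusted p = 0.958). Whether these r differ from those of Chrna6, Chrna4 and Chrnb3 was not tested. Chrnb2, whose product partners alpha 4 and alpha 6, had an r of 0.070 with Chrna4 and 0.327 with Chrna6, neither past the threshold (adjusted permutation p = 0.958 and 0.933). The value with Chrna6 was 0.067 without ZT20 replicate 2.

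Among the subunits themselves, Chrna4 varied with Chrna6 (r = 0.636, rho = 0.757, adjusted permutation p = 0.0192 and 0.0081) and with Chrnb3 (r = 0.613, rho = 0.643, adjusted permutation p = 0.0192 and 0.00837). Both were positive at 6 of 6 time points. Without the 2 mice farthest in Chrna4 they were 0.671 and 0.531. Chrna6 and Chrnb3 had an r of 0.549, also positive at 6 of 6 time points, which passed before adjustment (permutation p = 0.0105) but not after it (adjusted p = 0.063). Chrna3 and Chrnb3 had an r of 0.480 (adjusted permutation p = 0.347). Once Th was removed by regression, r fell to 0.246 for Chrna4 with Chrna6, to 0.384 for Chrna4 with Chrnb3 and to 0.088 for Chrna6 with Chrnb3, and 0 of 28 pairs passed the adjusted permutation test. Leaving out single arrays moved the count of 5 to between 1 and 6, and by over 1.5 times in 2 cases, to 1 without ZT8 replicate 2 and to 3 without ZT20 replicate 4. The relation of Chrna6 with Th was called in each of these.

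**Figure D4:**
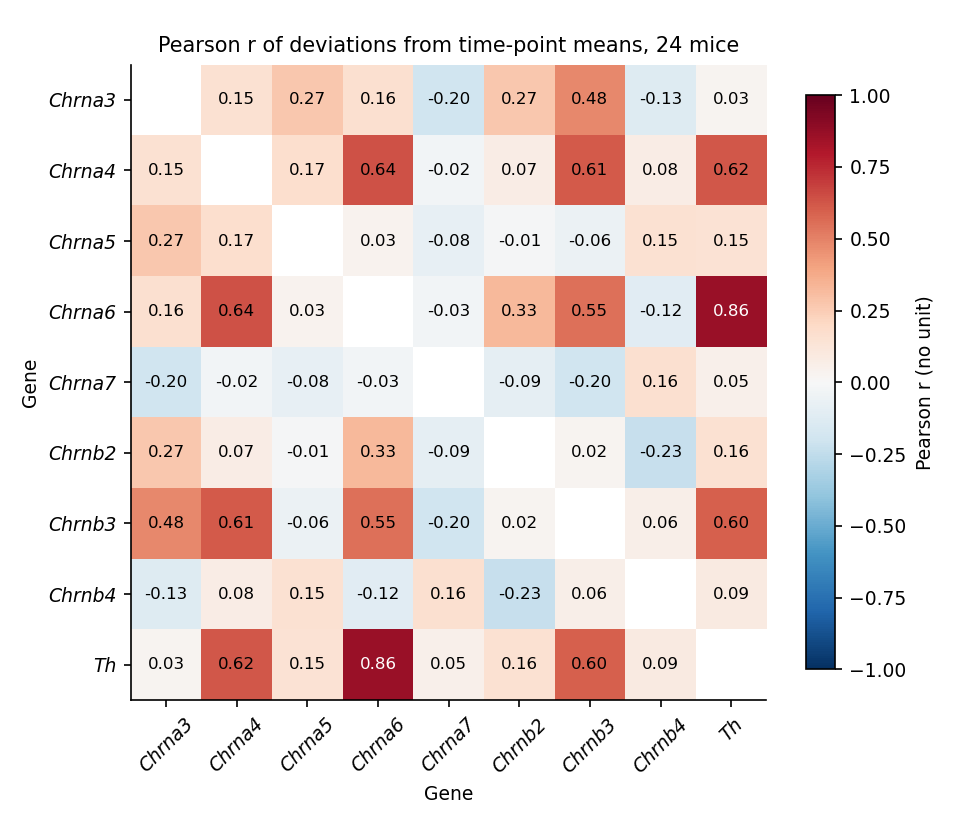
Pearson r between deviations from time-point means for every pair of the 8 subunits and Th (rows and columns), over 24 mice; red is positive, blue negative, and each cell gives r. The darkest cells join Chrna6 and Th (0.86), Chrna4 and Chrna6 (0.64), Chrna4 and Th (0.62), Chrna4 and Chrnb3 (0.61) and Chrnb3 and Th (0.60).

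Markers of other cell types correlated with these subunits as well. The mean of the 13 dopamine neuron markers, which contains Th, had an r of 0.777 with Chrna6, 0.651 with Chrnb3 and 0.526 with Chrna4, and between -0.079 and 0.214 with the other 5. Of the 13 single markers 11 were positive with each of Chrna6, Chrna4 and Chrnb3, and 11 also with Chrnb4. The lowest was Foxa1, with an r of -0.410 with Chrna6, -0.453 with Chrna4 and -0.476 with Chrnb3, and the median marker had 0.424, 0.368 and 0.487. The mean of the 3 GABA neuron markers (Gad1, Gad2 and Slc32a1) ranged from 8.65 to 8.93 over arrays and had an r of 0.799 with Chrnb3, 0.603 with Chrna4 and 0.499 with Chrna6. The mean of 3 glutamate neuron markers had an r of 0.565 with Chrna4, above that of the dopamine neuron markers, and the mean of 5 astrocyte markers 0.509. The mean of 4 oligodendrocyte markers had 0.475 with Chrnb3. Some list means had a negative r. The mean of 3 markers of neighbouring nuclei had -0.440 with Chrna6 and -0.423 with Chrna4. Of these 3 markers, 0 were positive with Chrna6 and 1 with Chrna4 (0.084). With Chrnb4 and Chrna7 the same mean was positive (0.515 and 0.370), as were 3 of 3 markers. The mean of 5 motor neuron markers had -0.395 with Chrnb3 and -0.386 with Chrna6. Of these 5 markers, 1 was positive with each (0.476 and 0.396). These correlations are given as descriptions over 24 arrays without a test, and the part of cell content in the relations was not tested.

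The position of the genes gave no uniform picture. Chrna6 and Chrnb3 are neighbours on their chromosome (r = 0.549), as are Chrna3 and Chrnb4 (r = -0.130). Chrna5 and Chrna3 are neighbours whose annotated spans overlap on opposite strands (r = 0.269).

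The genes whose deviations were most like those of each subunit, over 24 arrays and among 19937 genes, are given as a description. Those of Chrna6 were Th (0.862), the zinc finger gene Zfp764 (0.837) and Slc6a3 (0.836). Those of Chrna4 were Wscd1 (0.832), Lrrc34 (0.797) and Sapcd1 (0.796). Those of Chrnb3 were Myl9, a myosin light chain (0.802), Syt1, the calcium sensor of vesicle release (0.784), and Stap1 (0.763). Dopamine neuron markers stood among the top 3 for Chrna6 alone. For Chrna3 they were Enox2 (0.766), Slc32a1, the vesicular GABA transporter (0.720), and Eif4g3 (0.717). For Chrna5 they were Paip2b (0.774), Ciao2a (0.760) and Ttc32 (0.750), and for Chrna7 Triml2 (0.826), Echdc3 (0.825) and Pik3r6 (0.819). For Chrnb2 they were Cd55b (0.767), Gpc4 (0.721) and Ralgapa2 (0.719), and for Chrnb4 Krt7 (0.854), Mrgprx1 (0.840) and Dip2c (0.793). The top values of 0.77 to 0.86 recur in every subunit, including those with no relation past the test, each being the highest of 19937 values.

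The other 8 nicotinic subunit genes on the array, mainly those of muscle and cochlear hair cells, were treated in the same way. In limma 0 of 8 passed the adjusted rhythm test and 1 of 8 the unadjusted one, beside the 8.91% of all transcripts. That was Chrne, the epsilon subunit of adult muscle, with a swing of 0.17 (adjusted p = 0.546 in limma) and a difference of -0.13 between early light and early dark (adjusted p = 0.422 in limma). Chrna10, of hair cells, followed with a swing of 0.18 (adjusted p = 0.615 in limma). The differences of Chrna1, Chrna2, Chrna9, Chrnb1 and Chrnd lay between -0.096 and -0.0027, and that of Chrng was 0.095.

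Proteins that assemble, escort or modulate nicotinic receptors were likewise without an adjusted call (0 of 14 in limma). Unadjusted, 2 of 14 passed the rhythm test, beside 8.91% of all transcripts. Tmem35a, also called NACHO, a chaperone needed for alpha 7 receptors, had the smallest p of the list, with a swing of 0.27 (adjusted p = 0.460 in limma), and Ywhah, a 14-3-3 protein that binds alpha 4, had a swing of 0.19 (adjusted p = 0.497 in limma). Of the 7 genes of acetylcholine synthesis, transport and breakdown 0 passed at either threshold, including Slc18a3, the vesicular acetylcholine transporter (swing 0.19), and Chat, choline acetyltransferase (0.12). Of the 5 muscarinic receptors 0 passed after adjustment and 1 before it, beside the same 8.91% of all transcripts. Chrm1 had a swing of 0.22 (adjusted p = 0.519 in limma) and was 0.18 higher in early light (adjusted p = 0.364 in limma). Chrm5, the muscarinic receptor of dopamine neurons, had a swing of 0.072.

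No cell marker passed the rhythm test after adjustment in limma. Of the 13 dopamine neuron markers 0 passed the rhythm test at either threshold, and the 2 with the smallest p were Aldh1a1 (swing 0.19, adjusted p = 0.685 in limma) and En1 (swing 0.16, adjusted p = 0.705 in limma). Th had a swing of 0.084 (adjusted p = 0.937 in limma). The study reported Th mRNA as rhythmic in wild types by another measure, qPCR of laser-dissected VTA from separate mice. Unadjusted, 2 of 4 oligodendrocyte markers (Mog and Mag) and 1 of 3 endothelial ones (Cldn5) passed the rhythm test. So did 1 of 3 glutamate neuron markers (Slc17a8) and 1 of 3 of neighbouring nuclei (Pou4f1), beside 8.91% of all transcripts. No GABA neuron, motor neuron, serotonin neuron, astrocyte or microglia marker did, and in these lists Slc32a1 came nearest (adjusted p = 0.562 in limma).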

How the data were processed

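RNA of punched VTA tissue from male C57BL/6N mice was hybridised to Affymetrix Mouse Gene 1.0 ST arrays, and the authors normalised the arrays together by RMA in R 2.13.1. The deposited values are log2 signals of 35556 probe sets. Of these, 23410 name a gene (21789 name 1 gene, 1621 several) and 12146 name none in the array annotation used here, and 21698 matched the RefSeq table used to update symbols. No read depth exists for arrays, and their number (24, 4 per time point) limits precision. The labels name no extraction or scan batch, and p-values measure the spread between these arrays.

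Groups were taken from the labelled time points. All fits ran on the 23410 transcripts in limma 3.58.1 (R 4.3.3), without a filter, replicate block or covariate. The rhythm test was the moderated F-test of a cosine and a sine term with a 24-h period, which stands in for the CircWave regression of the study. Early light against early dark was a contrast in a fit of the 6 time points. Both were adjusted by Benjamini-Hochberg and called at an adjusted p under 0.05. Relations between mice used deviations from time-point means, 100000 two-sided permutations within time points (20000 where an array was left out) and Benjamini-Hochberg over 36 relations. The smallest p that 100000 permutations can give is 1e-05, and 20000 give a larger one. Values as deposited were permuted across time points.

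The genes named are the 8 subunits, all other nicotinic subunit genes, the 2 genes with the smallest rhythm p of each list, the 3 genes most like each subunit, and Th, Slc6a3 and Slc18a2. The other genes named were chosen after their values were seen. The lists held 14 accessory proteins, 7 genes of acetylcholine turnover, 5 muscarinic receptors and markers of 10 cell types. Some listed markers are not reported here. Members, lists and tests were chosen with earlier results of these data known. Alternatives comprised other curves, contrasts, scales, normalisations, filters, array weights, a replicate block and leaving out arrays. Figures were drawn with matplotlib 3.10.9.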

Additional observations from a re-analysis of the deposited data

How the results depend on the processing

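The count of subunits called was 0 under all 40 alternatives of the rhythm test and all 32 of early light against early dark. A filter on probe sets above the median level removed Chrna3, Chrna5, Chrna6, Chrnb2 and Chrnb3 from these tests. Since each subunit had 1 probe set, the alternative using every probe set could not change its swing or difference. Adjusted p-values could change, that of the Chrna4 rhythm in limma from 0.776 to 0.758. The unadjusted rhythm count was 1 without all arrays of ZT20, where Chrna5 had a swing of 0.28 (adjusted p = 0.652 in limma). Signs of small differences turned. Late light against late dark gave 0.0023 for Chrna4, 0.083 for Chrna5 and 0.025 for Chrna6, all light against all dark times 0.00299 for Chrna5, and array weights 0.00466 for Chrna5. Leaving out single arrays gave -0.027 to 0.057 for Chrna3, -0.069 to 0.031 for Chrna5 and -0.053 to 0.023 for Chrnb4, and without a change of sign -0.12 to -0.0042 for Chrnb3 (the latter without ZT12 replicate 1) and -0.13 to -0.014 for Chrna6. When single arrays were left out, swings ranged from 0.076 to 0.21 for Chrna6 and 0.060 to 0.18 for Chrnb3. They ranged from 0.020 to 0.081 for Chrnb4, 0.022 to 0.078 for Chrna3 and 0.0054 to 0.044 for Chrna7. Over all alternatives Chrna6 reached 0.27 (curve with 24-h and 12-h periods) and Chrnb4 0.15 (without all arrays of ZT8). With the time point as a factor, the span of means was 0.21 for Chrnb3, 0.15 for Chrna3 and 0.11 for Chrna7. The cause was not tested.

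The count of relations called, 5 of 36, was 5 on values as deposited, 3 after a further quantile normalisation and 1 to 6 when single arrays were left out, and the 2 called pairs became 0 with Th removed by regression. Chrna6 with Th kept its call in all 27 alternatives (adjusted permutation p from 0.00036 to 0.0036). Chrna4 with Th lost it in 1 and Chrnb3 with Th in 9. Of 28 alternatives, Chrna4 with Chrna6 lost its call in 2 and Chrna4 with Chrnb3 in 4, while Chrna6 with Chrnb3 gained one in 5. Near-zero r changed sign. Chrna3 with Th was -0.0092 on values as deposited and -0.047 after quantile normalisation, and Chrna4 with Chrnb2 -0.054 after quantile normalisation and -0.034 with Th removed. Leaving out single arrays gave ranges with Th of -0.088 to 0.12 for Chrna3, -0.070 to 0.12 for Chrna7, -0.075 to 0.23 for Chrnb2 and -0.066 to 0.21 for Chrnb4. Chrna3 with Chrnb4 ranged from -0.43 to 0.033 and Chrna4 with Chrnb2 from -0.048 to 0.18.

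Replicate numbers were shared between time points, and the labels do not say whether they pair the mice. Same-numbered arrays had a median r of deviations of 0.026, from -0.30 to 0.58 over 60 pairs. For different numbers the median was -7.07e-05. Of 24 arrays 6 were closest to one of their own number. With a replicate block the counts were 0 for rhythm, 0 for early light against early dark and 6 for relations, Chrna6 with Chrnb3 being added (adjusted permutation p = 0.0378).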
